A study of Homo sapiens with 6 samples.

Results

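The genes described here are the RNA and the proteins that hold or release P-TEFb, the kinase that lets paused RNA polymerase II enter productive elongation. They were chosen by name as 10 of the 56303 genes of the count table: the small nuclear RNA gene RN7SK, 2 of its annotated copies (RN7SKP203 and RN7SKP255), and the 7 protein-coding genes HEXIM1, HEXIM2, LARP7, MEPCE, CDK9, CCNT1 and CCNT2. The 3 RNA genes were picked because of their read counts in these same libraries, so their values are given as a description with no test. The proteins were picked by role, with earlier results of these data known.

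SW480, an established human colorectal cancer cell line, was infected with lentivirus that carried either a nonsilencing hairpin (shCtrl) or a hairpin against MORC2 (shMORC2), an ATPase of the MORC family. Cells of both groups were otherwise labelled wild type, grew in serum-containing medium, and had been through infection and puromycin selection, which the study's methods describe as giving stable clonal lines. The number of selected lines per hairpin is not given in the sources used here, and an effect of MORC2 loss cannot be told apart from a difference between selected lines. Each group had 3 libraries, made with a stranded mRNA kit. The study calls them independent replicate experiments, without saying whether infection and selection were repeated for each, so p-values measure only the spread between these libraries.

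7SK is a noncoding RNA made by RNA polymerase III that is not polyadenylated. MEPCE caps its 5′ end and LARP7 binds its 3′ end. On this scaffold HEXIM1 or HEXIM2 holds P-TEFb, a dimer of the kinase CDK9 with cyclin T1 or T2 (CCNT1, CCNT2), in an inactive state. Released P-TEFb phosphorylates RNA polymerase II and the factors that hold it near the promoter. The human genome holds many annotated copies of 7SK, most of which are regarded as pseudogenes. Because the libraries were made from mRNA, the 7SK counts are not a measure of all 7SK in the cells.

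The sequences of RN7SK and of 3 copies are shown because the copies that differed most in count between the groups are nearly identical to the first part of RN7SK. All are GRCh38 reference sequence read from transcription start to end. The first lines give RN7SK, bases 1 to 241 (chr6:52995620-52995860, plus strand) and bases 242 to 331 (chr6:52995861-52995950). Capitals there mark GATC (GAUC in the RNA), the repeat of the 5′ hairpin that HEXIM binds.
RN7SK, bases 1 to 241: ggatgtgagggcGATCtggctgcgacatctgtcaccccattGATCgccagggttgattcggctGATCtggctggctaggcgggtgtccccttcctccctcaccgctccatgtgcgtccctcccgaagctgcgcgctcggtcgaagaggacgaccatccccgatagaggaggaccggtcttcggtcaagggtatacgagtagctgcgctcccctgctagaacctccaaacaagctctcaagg
RN7SK, bases 242 to 331: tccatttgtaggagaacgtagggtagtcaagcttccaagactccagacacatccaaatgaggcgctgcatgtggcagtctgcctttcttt
The next lines give the first 280 bases of RN7SKP203 (chr2:76445131-76445410, minus strand), RN7SKP255 (chr14:89712511-89712790, plus strand) and RN7SKP71 (chr12:112267077-112267356, plus strand). Capitals there mark bases that differ from RN7SK or lie beyond the stretch that matches it.
RN7SKP203: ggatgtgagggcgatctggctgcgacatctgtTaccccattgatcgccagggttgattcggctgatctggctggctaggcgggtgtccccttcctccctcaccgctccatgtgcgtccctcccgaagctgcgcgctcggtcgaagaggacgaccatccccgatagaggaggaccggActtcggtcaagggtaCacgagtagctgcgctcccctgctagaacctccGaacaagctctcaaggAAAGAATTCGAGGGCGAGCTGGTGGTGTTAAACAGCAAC
RN7SKP255: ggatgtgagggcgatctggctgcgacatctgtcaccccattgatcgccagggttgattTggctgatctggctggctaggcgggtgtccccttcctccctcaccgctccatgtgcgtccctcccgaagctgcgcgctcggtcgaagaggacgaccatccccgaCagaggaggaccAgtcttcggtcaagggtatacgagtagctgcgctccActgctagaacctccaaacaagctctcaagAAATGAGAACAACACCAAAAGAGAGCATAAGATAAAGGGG
RN7SKP71: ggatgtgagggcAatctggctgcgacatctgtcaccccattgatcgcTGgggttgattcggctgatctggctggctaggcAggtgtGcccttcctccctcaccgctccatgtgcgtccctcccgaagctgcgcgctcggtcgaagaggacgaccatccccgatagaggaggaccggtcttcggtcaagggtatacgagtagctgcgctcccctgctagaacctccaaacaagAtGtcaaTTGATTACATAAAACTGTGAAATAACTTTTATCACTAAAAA

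RN7SKP203 matched RN7SK over bases 1 to 241 with 98.3% identity, and RN7SKP255 matched bases 1 to 240 with 98.3% identity. With positions counted from 1 at the 5′ end of RN7SK, the substitutions in RN7SKP203 were C33T, T177A, T193C and A226G. Those in RN7SKP255 were C59T, T163C, G175A and C211A, so the copies shared none. RN7SKP71 was 97.1% identical over bases 1 to 239, and its G13A removed the first GATC. All 3 copies therefore lacked the last stretch of RN7SK, which contains the 3′ hairpin that LARP7 binds. GATC occurred 3 times in RN7SK, at positions 13, 42 and 64. It also occurred 3 times in RN7SKP203, 3 times in RN7SKP255 and 2 times in RN7SKP71. It was present in 261 of the 294 annotated 7SK loci (88.8%), and since it reads the same on both strands, both were covered by the search. In the 250 bases upstream, the longest run that RN7SKP203 shared with the same region of RN7SK was 10 bases, and for RN7SKP255 it was 9 bases. For another copy, RN7SKP9, it was 8 bases, and RN7SKP71 shared no run of that length. The run that unrelated sequences would share was not estimated, so no likeness upstream is read from these lengths.

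RN7SKP203 (chr2:76445079-76445410, minus strand) lay outside other annotated genes. RN7SKP255 (chr14:89712511-89712823, plus strand) lay inside the noncoding gene RP11-33N16.3 on the opposite strand, without sharing exonic bases. Reads from such copies are hard to assign. Of the 282 windows of 50 bases in RN7SK, 216 occurred unchanged in another 7SK locus. The same held for 94 of 283 windows in RN7SKP203 and for 78 of 264 in RN7SKP255. With windows of 100 bases it held for 119 of 232 in RN7SK, 44 of 233 in RN7SKP203 and 4 of 214 in RN7SKP255. How reads with several matches were treated is not given in the sources used here, so the split of reads among 7SK loci is uncertain.

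Total counts ranged from 42092664 to 43434425 per library, and log2 levels correlated at 0.995 to 0.997 within groups and at 0.98 to 0.985 between them. MORC2, the target of the hairpin, fell from 47.1 ± 1.47 to 30.5 ± 4.07 CPM (read counts scaled for library depth, mean ± SD, n = 3 per group), a log2 fold change of -0.63 (SE 0.10, adjusted p = 0.000216 by edgeR). Of 10 colorectal epithelial markers, 9 had at least 100 counts in every library, among them EPCAM, KRT8 and VIL1, while CDX1 had 0 to 4. The leukocyte and fibroblast markers PTPRC, DCN and COL1A2 had at most 10 counts in every library, and the endothelial marker PECAM1 had 576 to 860. In bulk samples, fewer cells of a type and less RNA per cell cannot be told apart. One library, shCtrl 3, stood apart in several small RNAs. Of 20711 genes averaging 10 counts or more, shCtrl 3 was at least 4-fold above the mean of the other shCtrl libraries for 20. It was at least 10-fold above for 4, RN7SK among them, and 2 of these 4 had no count in shCtrl 1 and 2. The same comparison is not given for the other libraries. Levels of 7SK genes are therefore given by library or with and without shCtrl 3, whereas counts summed over libraries include it.

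The reads of RN7SKP203 and RN7SKP255 were present in every shCtrl library and nearly absent from every shMORC2 library. RN7SKP203 had 257, 222 and 893 counts in shCtrl 1, 2 and 3, and 0, 0 and 2 counts in shMORC2 1, 2 and 3. RN7SKP255 had 125, 128 and 513 counts in shCtrl 1, 2 and 3, and none of the 3 shMORC2 libraries held a read of it. For both copies the lowest shCtrl library lay far above the highest shMORC2 library, and shCtrl 3 was the highest of all. RN7SKP203 was 693-fold lower in shMORC2 by the ratio of 1372 to 2 summed counts, with a 95% exact Poisson interval of 192 to 5730. Without shCtrl 3 the ratio was 358, with an interval of 98.4 to 2960. With a floor of 3 counts in each shMORC2 library in place of these 2 counts, the difference was smaller than the lower limits of both intervals, at log2 ratios of -7.29 and, without shCtrl 3, -6.31. For RN7SKP255, set against the same floor, the level was at least 87.3-fold lower, and at least 42-fold lower without shCtrl 3. These intervals and floors cover counting error only and treat each read as a separate molecule. They are no test of the difference, because both copies were picked for their counts in these libraries. The spread between libraries, such as 222 to 893 counts of RN7SKP203 in shCtrl, is not part of them.

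RN7SK itself behaved differently. It had 202, 210 and 9924 counts in shCtrl 1, 2 and 3, and 254, 239 and 281 in shMORC2 1, 2 and 3. A single library, shCtrl 3, was thus 50.4-fold above the mean of the other shCtrl libraries, and the remaining 5 lay close together. Mean levels were 83.6 ± 137 CPM for shCtrl against 6.02 ± 0.50 CPM for shMORC2 (SD over 3 libraries), a log2 ratio of means of -3.80 with groups that overlapped. Without shCtrl 3 the shCtrl mean was 4.79 CPM and the direction turned, with a log2 ratio of 0.33 and each shMORC2 library above both remaining shCtrl libraries. In shCtrl 3 the copies were raised less than RN7SK, RN7SKP203 by 3.91-fold and RN7SKP255 by 4.24-fold over the mean of the other shCtrl libraries.

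**Figure D1:**
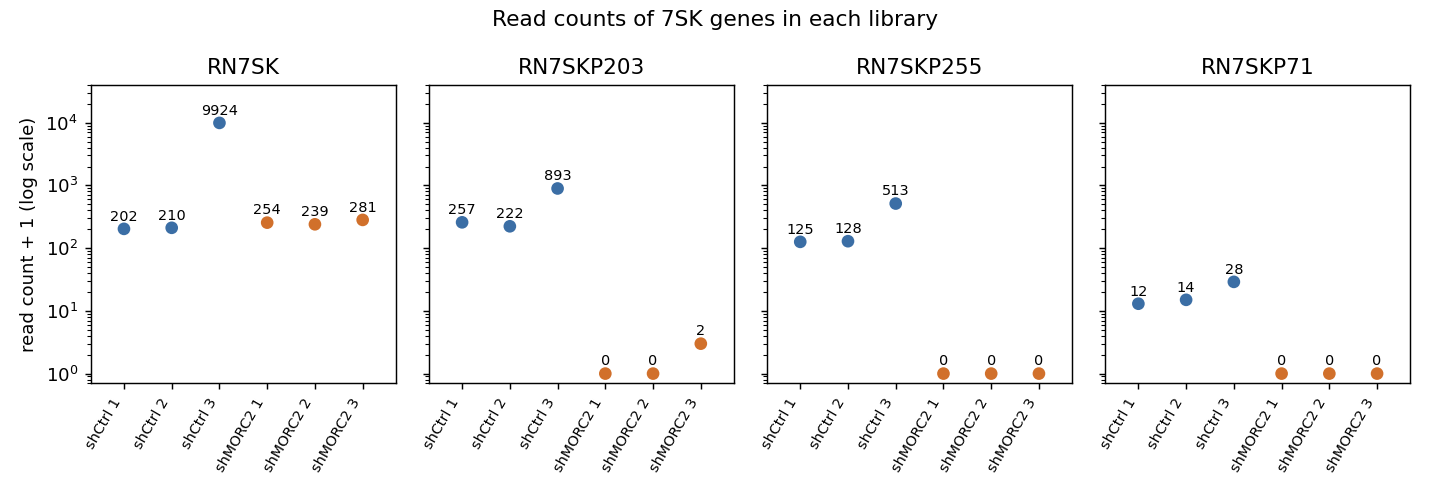
Read counts (plus 1, log scale) of RN7SK and 3 copies in each of the 3 shCtrl (blue) and 3 shMORC2 (orange) libraries, with the count printed above each point. RN7SK stood out only in shCtrl 3 with 9924 counts, whereas RN7SKP203, RN7SKP255 and RN7SKP71 had counts in all shCtrl libraries and 0 to 2 in shMORC2 libraries.

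The sum of all 7SK reads and their distribution among loci were compared next. RN7SK and its 293 copies together had 805, 736 and 11607 counts in shCtrl 1, 2 and 3, and 398, 370 and 394 in shMORC2. The summed level was 106 ± 153 CPM for shCtrl against 9.04 ± 0.191 CPM for shMORC2, a log2 ratio of -3.55, which became -0.985 without shCtrl 3. RN7SK held 25.1% of these counts in shCtrl 1 (95% Wilson interval 22.2 to 28.2), 28.5% in shCtrl 2 (25.4 to 31.9) and 85.5% in shCtrl 3 (84.8 to 86.1). In shMORC2 1, 2 and 3 it held 63.8% (59 to 68.4), 64.6% (59.6 to 69.3) and 71.3% (66.7 to 75.6). The share of RN7SK in shMORC2 was thus above shCtrl 1 and 2 and below shCtrl 3.

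RN7SKP203 and RN7SKP255 together held 47.5% of the 7SK counts in shCtrl 1 (95% Wilson interval 44 to 50.9), 47.6% in shCtrl 2 (44 to 51.2) and 12.1% in shCtrl 3 (11.5 to 12.7). They held 0 of 398 counts in shMORC2 1 and 0 of 370 in shMORC2 2, which allows shares of up to 0.754% and 0.811%, and 0.508% in shMORC2 3 (0.139 to 1.83). The share of the copies was therefore lower in each shMORC2 library than in each shCtrl library, also in shCtrl 3, where RN7SK took most of the reads. The intervals and limits of these shares cover counting error only and treat each read as a separate molecule. RN7SKP203 had 2.06, 1.73 and 1.74 counts for each count of RN7SKP255 in shCtrl 1, 2 and 3. The ratio of RN7SKP203 to RN7SK was 1.27 and 1.06 in shCtrl 1 and 2 and 0.09 in shCtrl 3.

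**Figure D2:**
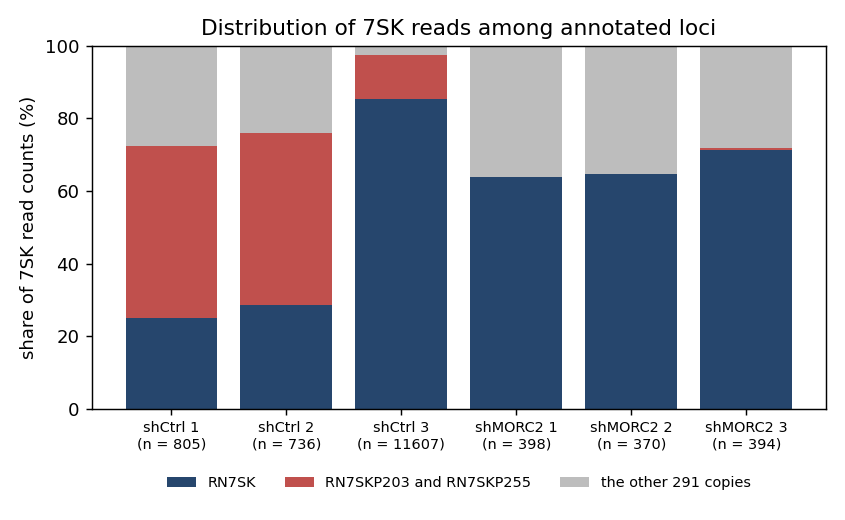
Share (%) of all 7SK read counts in each library that fell on RN7SK, on RN7SKP203 and RN7SKP255, or on the other 291 copies, with the total 7SK count (n) under each bar. RN7SKP203 and RN7SKP255 held 47.5%, 47.6% and 12.1% in the shCtrl libraries and at most 0.508% in the shMORC2 libraries.

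Most other copies had no reads. Of the 293 copies, 228 had no count in any library, 65 had at least 1, and 6 reached a mean of 10 counts. The 291 copies other than RN7SKP203 and RN7SKP255 summed to 221, 176 and 277 counts in shCtrl and 144, 131 and 111 in shMORC2. Their level was 5.31 ± 1.31 CPM against 3.0 ± 0.344 CPM, a log2 ratio of -0.82, or -0.62 without shCtrl 3, with groups that did not overlap. Copies at 0 in every shMORC2 library and counted in every shCtrl library numbered 4: RN7SKP255, RN7SKP71, RN7SKP9 and RN7SKP271. RN7SKP71 had 12, 14 and 28 counts in shCtrl, so it was at least 6.12-fold lower in shMORC2, or at least 4.32-fold without shCtrl 3. RN7SKP9 had 3, 4 and 6, and RN7SKP271 had 2 in each. The reverse pattern was seen for 1 copy, RN7SKP132, with 2, 5 and 3 counts in shMORC2. RN7SKP9, RN7SKP271 and RN7SKP132 thus lay near the floor of 3 counts. The share of all genes with either pattern is not given here, so these numbers of copies cannot be set against it. RN7SKP71 lay inside HECTD4 on the opposite strand, and HECTD4 had 1963, 1975 and 1838 counts in shCtrl and 1659, 1420 and 1482 in shMORC2.

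The other copies that averaged 10 counts or more lay inside longer genes and did not show the same split. RN7SKP173 (in ACTR5, same strand) had 45, 34 and 44 counts in shCtrl and 28, 33 and 18 in shMORC2. RN7SKP97 (in ASPH, same strand) had 20, 16 and 22 against 9, 12 and 14. Both groups kept reads on these copies, and the shMORC2 libraries were lower. RN7SKP80 (in RRP7BP, same strand) had 34, 15 and 45 counts against 3, 8 and 12, beside 1045, 1136 and 926 against 688, 554 and 651 for RRP7BP. This copy was 96.3% identical to RN7SK over its aligned part. Its groups did not overlap, with a log2 ratio of means of -2.04, or -1.65 without shCtrl 3. RN7SKP23 had 30, 24 and 43 against 24, 24 and 15, but its annotated entry was 4301 bases long and only 30 bases of RN7SK aligned to it. The part of reads from the surrounding genes in these counts was not tested.

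Copies whose match to RN7SK ended near where those of RN7SKP203 and RN7SKP255 did were common. The match to RN7SK began within bases 1 to 5 and ended within bases 235 to 245 for 156 of the 293 copies. Of these, 5 were at least 97% identical to RN7SK, a limit set after the values were seen, and they were RN7SKP203, RN7SKP255, RN7SKP71, RN7SKP176 and RN7SKP9. These 5 held 2213 of the 2812 counts of all copies in shCtrl and 9 of 388 in shMORC2. Nearly all of the 2213 were on RN7SKP203 and RN7SKP255, which were picked for their counts. Of the 2812 counts, 1683 came from shCtrl 3. RN7SKP176 and RN7SKP9, both 97.9% identical, had few reads. RN7SKP176 had 4, 2 and 2 counts in shCtrl and 1, 6 and 0 in shMORC2. A copy of lower identity could also hold reads: RN7SKP173, at 89.3% and inside ACTR5 on the same strand, had 202 counts over the 6 libraries. The 20 copies whose match reached base 320 or further summed to 31 counts in shCtrl and 42 in shMORC2.

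**Figure D3:**
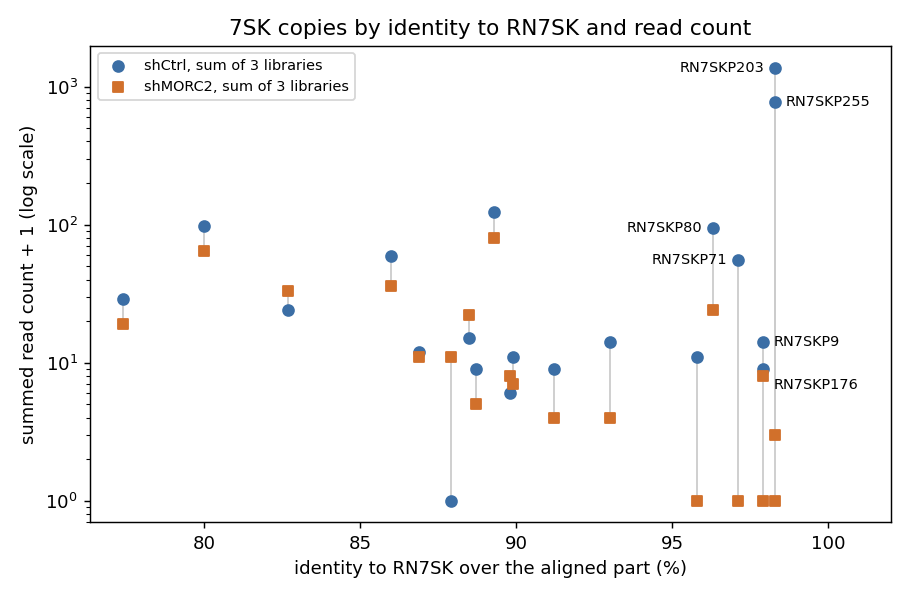
Identity to RN7SK over the aligned part (%) against the read count summed over 3 libraries (plus 1, log scale) for each copy with at least 10 counts in all, with shCtrl as blue circles, shMORC2 as orange squares and a grey line joining the 2 values of a copy. RN7SKP203 and RN7SKP255, both 98.3% identical, lay farthest apart, with 1372 against 2 and 766 against 0 counts.

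Other short RNAs made by RNA polymerase III were compared library by library. Of 19 listed, 17 had an entry and 5 a mean of at least 10 counts. RN7SL1, an RNA of the signal recognition particle, had 268, 283 and 2002 counts in shCtrl and 260, 216 and 270 in shMORC2. RN7SL2 had 578, 575 and 3738 against 308, 242 and 300. In both, shCtrl 3 was high as for RN7SK, by 7.60-fold and 6.79-fold over the mean of the other shCtrl libraries. RN7SL1 overlapped between groups, with a log2 ratio of means of -1.82, or -0.14 without shCtrl 3. RN7SL2 was lower in every shMORC2 library, with a log2 ratio of -2.57, or -1.02 without shCtrl 3. RMRP, the RNA of RNase MRP, had 32, 26 and 64 counts against 6, 0 and 0. The groups of RMRP did not overlap, with a log2 ratio of means of -4.42, or -3.90 without shCtrl 3. RPPH1, the RNA of RNase P, had 511, 437 and 589 against 443, 477 and 454, with groups that overlapped. RNU6-8, a U6 small nuclear RNA gene, had 4, 2 and 8 counts in shCtrl and 14, 26 and 8 in shMORC2. Its mean was higher in shMORC2, with a log2 ratio of means of 1.76 and groups that overlapped, or 2.44 without shCtrl 3, when they did not. What the high short RNA counts of shCtrl 3 share with its RN7SK count was not tested.

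The genes whose profile over the 6 libraries was closest to that of RN7SK were SNORD3B-2, SNORD3C and RN7SL1, with root mean square differences of 0.83, 0.892 and 0.924 in centred log2 CPM. SNORD3B-2, a copy of the U3 small nucleolar RNA, had 16, 60 and 526 counts in shCtrl and 26, 38 and 14 in shMORC2. SNORD3C, another U3 copy, had 99, 349 and 1968 against 142, 122 and 94. All 3 had their highest count in shCtrl 3, as RN7SK did. They were chosen for closeness to RN7SK, which stood out in that library, so this peak follows from the choice.

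Of the 7 protein members, 4 changed in shMORC2 (edgeR adjusted p under 0.05): HEXIM1, MEPCE and CDK9 rose and CCNT1 fell. Over all 21005 genes tested, 39.5% were called, 19.9% as higher and 19.6% as lower, so calls were frequent throughout these libraries. The groups did not overlap for the same 4 members, against 50.2% of all genes tested. Without shCtrl 3 the count was again 4 of 7, against 31% of all genes. No protein member moved by more than 0.40 on the log2 scale. The median log2 fold change of the 7 was 0.12, against -0.01 for all genes tested. Regardless of direction, the median size of log2 fold change over all genes tested was 0.31, so the called members moved by about a typical amount.

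HEXIM1 (chr17:45148502-45152101, plus strand), the main inhibitor of P-TEFb on 7SK, was 83.2, 81.9 and 84.5 CPM in shCtrl 1, 2 and 3 and 98.9, 103 and 106 CPM in shMORC2. All shMORC2 libraries lay above all shCtrl libraries. The mean rose from 83.2 ± 1.31 to 103 ± 3.70 CPM, a log2 fold change of 0.30 (SE 0.07, adjusted p = 0.00413 by edgeR) or 23.5%. HEXIM2 (chr17:45160700-45170040, plus strand), its paralog and neighbour on the same strand, was 2.94, 4.0 and 3.14 CPM in shCtrl and 3.07, 2.71 and 3.24 CPM in shMORC2. Its groups overlapped, and the log2 fold change was -0.16 (SE 0.17, adjusted p = 0.487 by edgeR). HEXIM1 held 93.3% ± 1.12 of the summed HEXIM level per length in shCtrl and 95.1% ± 0.413 in shMORC2 (SD, n = 3).

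MEPCE (chr7:100428790-100434126, plus strand), the capping enzyme of 7SK, was 29.3, 28.8 and 29.5 CPM in shCtrl and 40.9, 32.9 and 41.8 CPM in shMORC2. The shMORC2 libraries were all higher, with shMORC2 2 the nearest to shCtrl. The log2 fold change was 0.40 (SE 0.10, adjusted p = 0.00486 by edgeR), or 31.9%. LARP7 (chr4:112636964-112657592, plus strand), which binds and stabilizes 7SK, was 51.1, 37.3 and 40.1 CPM in shCtrl and 54.4, 44.1 and 38.8 CPM in shMORC2. Replicate 1 was the highest library in both groups, which overlapped. The log2 fold change of LARP7 was 0.10 (SE 0.13, adjusted p = 0.595 by edgeR), and it was -0.046 without shMORC2 1.

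CDK9 (chr9:127785679-127790787, plus strand), the kinase, was 51.6, 47.9 and 52.0 CPM in shCtrl and 59.6, 61.1 and 68.0 CPM in shMORC2. The groups did not overlap, and the log2 fold change was 0.32 (SE 0.08, adjusted p = 0.00662 by edgeR), or 24.6%. CCNT1 (chr12:48688458-48716998, minus strand), the main cyclin partner, went the other way. It was 65.5, 71.2 and 64.3 CPM in shCtrl and 57.4, 53.5 and 51.0 CPM in shMORC2, with every shMORC2 library below every shCtrl library. Its log2 fold change was -0.31 (SE 0.08, adjusted p = 0.00688 by edgeR), or -19.4%. CCNT2 (chr2:134918235-134959342, plus strand), the alternative cyclin, was 24.1, 22.3 and 21.5 CPM in shCtrl and 29.3, 24.5 and 20.2 CPM in shMORC2. Its groups overlapped, with a log2 fold change of 0.12 (SE 0.12, adjusted p = 0.430 by edgeR), and of -0.016 without shMORC2 1.

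**Figure D4:**
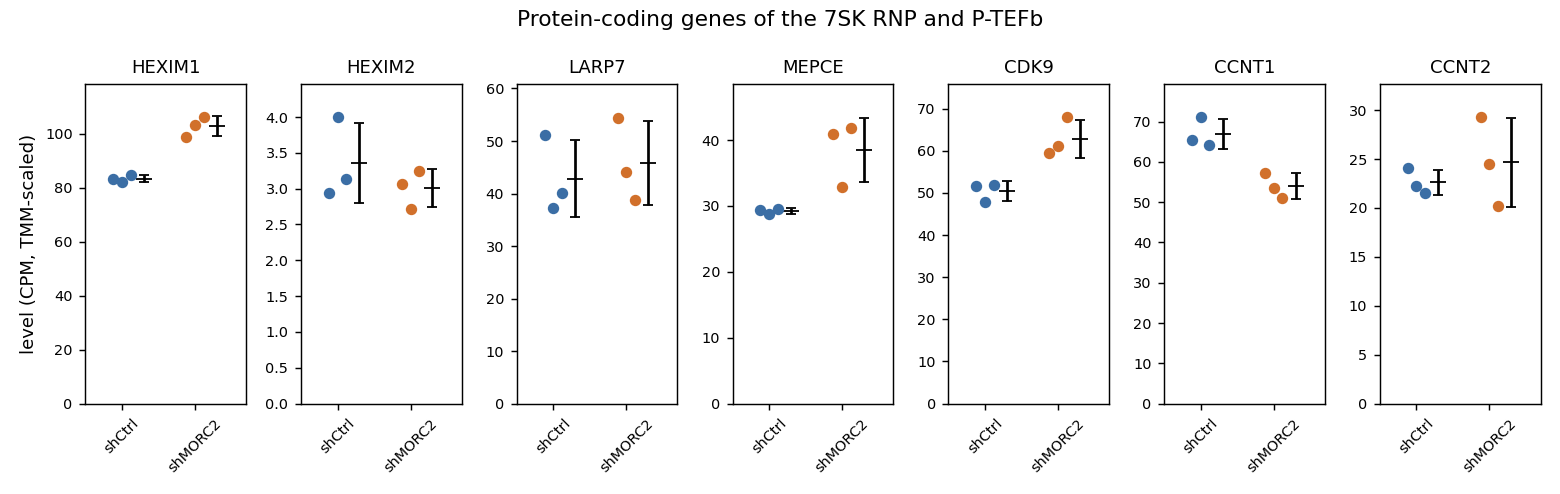
Levels (CPM scaled by TMM) of the 7 protein members in the 3 shCtrl (blue) and 3 shMORC2 (orange) libraries, with the mean and SD as a black bar beside the points and each vertical axis starting at 0. HEXIM1, MEPCE and CDK9 were higher in all shMORC2 libraries, CCNT1 was lower in all, and HEXIM2, LARP7 and CCNT2 overlapped.

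Per length, in the authors' RPKM (read counts scaled for gene length and library depth), the order in shCtrl was HEXIM1 at 23.2 ± 0.459, CDK9 at 16.9 ± 0.802, LARP7 at 10.5 ± 2.00, CCNT1 at 9.11 ± 0.588, MEPCE at 8.56 ± 0.202, CCNT2 at 2.5 ± 0.202 and HEXIM2 at 1.65 ± 0.276 (mean ± SD, n = 3). CCNT1 overlapped both LARP7 and MEPCE, and the other neighbours did not overlap. In shMORC2 the order was HEXIM1 at 28.4 ± 0.618, CDK9 at 20.9 ± 1.32, MEPCE at 11.2 ± 1.56, LARP7 at 11.2 ± 2.18, CCNT1 at 7.30 ± 0.578, CCNT2 at 2.71 ± 0.552 and HEXIM2 at 1.47 ± 0.144. CCNT1 thus lay below MEPCE and LARP7 in shMORC2, where it overlapped neither.

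The relation between inhibitor, kinase and cyclin transcripts followed from these changes and is given without a test. The ratio of summed HEXIM1 and HEXIM2 to summed CCNT1 and CCNT2 RPKM was 2.13, 2.04 and 2.25 in shCtrl and 2.63, 3.01 and 3.40 in shMORC2. The ratio of CDK9 to the summed cyclins was 1.49, 1.32 and 1.56 in shCtrl and 1.80, 2.05 and 2.48 in shMORC2. Both ratios were higher in each shMORC2 library. CCNT1 made up 78.5% ± 1.38 of the summed cyclin T level in shCtrl and 73.1% ± 2.49 in shMORC2 (SD, n = 3).

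Some members share exonic bases with a gene on the opposite strand: HEXIM1 520 bases with AC002117.1, HEXIM2 1026 with RP13-890H12.2, LARP7 302 with the MIR302B entry and 32 with ZGRF1, MEPCE 203 with ZCWPW1 and CCNT2 148 with CCNT2-AS1. The strand setting of the counting is not given in the sources used here, so reads over these bases may belong to either gene. ZCWPW1 had 194, 156 and 166 counts in shCtrl and 327, 212 and 306 in shMORC2, beside 1286, 1217 and 1215 against 1813, 1370 and 1780 for MEPCE. Counts of both genes were highest in shMORC2 1 and 3, and the part of shared bases was not tested.

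The genes whose profile was closest to that of HEXIM1 were LINC00649, PSMB7 and AP000275.65, with root mean square differences of 0.0189, 0.0194 and 0.0202 in centred log2 CPM over the 6 libraries. LINC00649 went from 36.8 to 45.6 CPM, PSMB7, a proteasome subunit, from 67.9 to 85.6 CPM, and AP000275.65 from 189 to 231 CPM.

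Among 25 elongation factors and P-TEFb recruiters, 5 rose, 7 fell and 13 did not pass the test (48% called against 39.5% of all genes), with a median log2 fold change of 0.10 against -0.01. The members that fell furthest were ELL3 (-0.77, from 14.2 to 8.34 CPM), ELL (-0.68, from 29.9 to 18.7 CPM) and ELL2 (-0.64, from 26.4 to 16.9 CPM), with edgeR adjusted p of 8.84e-05, 0.000166 and 6.8e-05. They are the 3 ELL proteins, which join P-TEFb in the super elongation complex. Those that rose furthest were SUPT4H1 (0.39, edgeR adjusted p = 0.00329) and SUPT5H (0.33, from 361 to 454 CPM, edgeR adjusted p = 0.00533), the subunits of the pausing and elongation factor DSIF, and the bromodomain protein BRD3 (0.33, edgeR adjusted p = 0.00309). With the replicate number as a block, 19 of the 25 were called, but the share of all genes called in that fit is not given here.

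Of 11 proteins that bind 7SK or release P-TEFb from it, 2 rose, 3 fell and 6 did not pass the test. The share called was 45.5% against 39.5% of all genes, and the median log2 fold change was -0.00152 against -0.01. The phosphatase PPM1G fell from 791 to 569 CPM (log2 fold change -0.47, edgeR adjusted p = 0.000296), the helicase DDX21 from 738 to 565 CPM (-0.39, edgeR adjusted p = 0.00143) and JMJD6 by 0.44 on the log2 scale (edgeR adjusted p = 0.0103). All 3 have been linked to the release of P-TEFb from 7SK. PPP1CA, a catalytic subunit of protein phosphatase 1, which has been linked to the same step, rose from 100.5 to 153 CPM (0.61, edgeR adjusted p = 6.34e-05). HNRNPA1, which binds 7SK that is free of P-TEFb, rose by 0.26 on the log2 scale (edgeR adjusted p = 0.0197).

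Of 9 other transcription kinases and their partners, 2 rose and 3 fell (55.6% called against 39.5% of all genes). The median log2 fold change was -0.13 against -0.01 for all genes, and with so few genes the share called is coarse. The Mediator kinase CDK8 fell (-0.39, edgeR adjusted p = 0.00291) and its paralog CDK19 rose (0.38, edgeR adjusted p = 0.00697). Their cyclin CCNC fell (-0.22, edgeR adjusted p = 0.0376, and 0.113 without shCtrl 3). CCNH, the cyclin of the TFIIH kinase CDK7, fell by 0.31 (edgeR adjusted p = 0.00657), and CCNK, the cyclin of CDK12 and CDK13, rose by 0.29 (edgeR adjusted p = 0.0123). The count of called genes was 3 of 9 without shMORC2 3, but the share of all genes called in that fit is not given here.

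Of 32 subunits, promoter factors and regulators of RNA polymerase III, 4 rose, 10 fell and 18 did not pass the test. The share called was 43.8% against 39.5% of all genes, and the median log2 fold change was -0.08 against -0.01. The list was not limited to factors that act at the 7SK gene. BDP1, a subunit of the initiation factor TFIIIB, fell from 125 to 71.1 CPM (-0.81, edgeR adjusted p = 0.00113). The polymerase subunits POLR3E (-0.58, edgeR adjusted p = 3.56e-05) and POLR3G (-0.48, edgeR adjusted p = 0.000575) also fell, whereas POLR3GL, the paralog of POLR3G, rose (0.31, edgeR adjusted p = 0.0105). POLR3K rose (0.47, edgeR adjusted p = 0.000534), and so did GTF3C6, a subunit of TFIIIC, from 36.4 to 58.3 CPM (0.68, edgeR adjusted p = 0.000447). The number of called genes in the list of 32 was 9 without shCtrl 2, 9 without shMORC2 2 and 7 without shMORC2 3. The shares of all genes called in those fits are not given here.

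**Figure D5:**
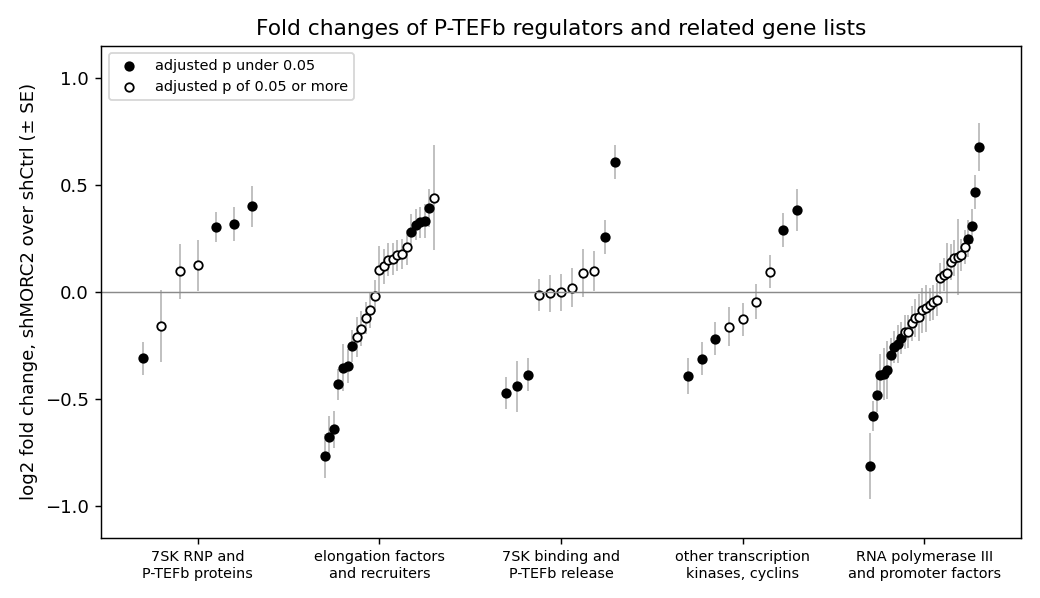
Log2 fold change (shMORC2 over shCtrl, with SE) of the 7 protein members and of each gene in the 4 related lists, ordered within each list, with filled points for an edgeR adjusted p under 0.05. Called genes lay on both sides of 0 in every list, with BDP1 (-0.81) the lowest and GTF3C6 (0.68) the highest among them.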

How the data were processed

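RNA of SW480 cells was sequenced in 3 shCtrl and 3 shMORC2 libraries made with a stranded mRNA kit that adds molecular identifiers. The authors deposited whole-read counts per gene and, in a second table, RPKM values. The submitters' processing notes name Trimmomatic 0.36, STAR 2.5.3a, featureCounts, Subread 1.5.1, edgeR 3.12.1 and the build GRCh38. The strand setting, the treatment of reads with several matches and any collapsing of molecular identifiers are not given in the sources used here. Each affects 7SK, whose copies share sequence. The tables of splicing events hold the authors' own comparisons and were not used. The tables held 0 columns of samples outside the series.

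Members, gene lists and tests were chosen with earlier results of these data known. Counts were filtered (filterByExpr), scaled (TMM) and tested with the quasi-likelihood F test of edgeR 4.0.16 in R 4.3.3, with group as the only term. P-values were adjusted by Benjamini and Hochberg over 21005 genes with a threshold of 0.05. The SE is the log2 fold change over the root of F. Levels are TMM-scaled CPM, and a floor of 3 counts per library was used for genes at 0. Other settings tried were the Wald test of DESeq2 1.42.0, no TMM, no filter, CPM above 1, limma 3.58.1 on log2 RPKM with 1 or 0.1 added (mean RPKM 1 or higher), the replicate number as a block, and leaving out each library. The scripts were tested on simulated data. Deviations from group means of libraries with the same replicate number correlated at 0.386, 0.193 and 0.181. Libraries with different numbers were not compared in this way, so these values do not show whether the numbers pair the libraries. The main test was unpaired, and the replicate block was an alternative. Libraries within groups differed by more than counting noise (chi-square per degree of freedom 6.8 to 23.8 over 6 pairs).

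Copies are all genes whose symbol starts with RN7SKP. Named genes were the members, MORC2, copies averaging 10 counts or more and the genes that hold them, the 3 highest and 3 lowest called genes of each list, and the 3 closest profiles of RN7SK and HEXIM1 (0.5 CPM added). Sequences came from the GRCh38 reference, aligned locally to RN7SK (match 2, mismatch -3, gap opening -5, extension -2, Biopython 1.88).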

Additional observations from a re-analysis of the deposited data

How the results depend on the processing

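The calls of the 7 protein members were kept in each of 13 alternatives, 4 of 7 each time. HEXIM1 ranged from 0.28 to 0.33 on the log2 scale, MEPCE from 0.34 to 0.50, CDK9 from 0.26 to 0.36 and CCNT1 from -0.36 to -0.27, with adjusted p at most 0.023, 0.0319, 0.0407 and 0.043. Without shMORC2 1, LARP7 turned to -0.046 and CCNT2 to -0.016, and neither was called in any alternative. Leaving out each library in turn, LARP7 ranged from -0.046 to 0.24, CCNT2 from -0.016 to 0.25 and the log2 ratio of RN7SK from -4.35 to 0.33. The last of these was the value without shCtrl 3. In the same fits the summed 7SK ratio ranged from -4.06 to -0.985 (the latter without shCtrl 3), the elongation list from 9 to 13 called genes, the 7SK binding list from 4 to 5, the other transcription kinases from 3 to 5 and the RNA polymerase III list from 7 to 12. The share of all genes called was 31% without shCtrl 3 and is not given for the other fits that leave out a library. These fits also had fewer libraries, so the lower counts cannot be read as a trait of the lists. Their cause was not tested.

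With the replicate block, which treats libraries of the same number as pairs, 19 of the 25 elongation genes were called in place of 12. In the RNA polymerase III list it called 19 of 32 in place of 14. The share of all genes called with the block is not given, so these rises cannot be set against it. The block changed the call of no protein member and moved no other list by more than 1.5 times. Depth limits the copies: below 3 counts per library, 0.0676 to 0.0729 CPM, absence cannot be told from a low level.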
